A study of Arabidopsis thaliana with 10 samples.

Results

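The 5 genes described here are the A class and B class floral MADS genes of Arabidopsis thaliana: APETALA1 (AP1, AT1G69120), CAULIFLOWER (CAL, AT1G26310), FRUITFULL (FUL, AT5G60910, listed as AGL8 in RefSeq), APETALA3 (AP3, AT3G54340) and PISTILLATA (PI, AT5G20240). They are 5 of the 27444 protein-coding genes of the annotation. They were taken by name, not by a measured value, but with earlier results of these data known. Every peak summit from 3000 bp upstream of a gene start to 1000 bp downstream of the gene end was assigned to that gene, which gave 47 of the 43308 summits in 9 peak lists. A summit is the position of highest signal within a peak. Summits of different libraries within 200 bp of each other were merged into 1 site, and the 47 summits formed 12 of 14570 merged sites, each named here by its gene and its distance in bp from the gene start.

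The data came from seq-DAP-seq, a sequential form of DNA-affinity purification followed by sequencing, in which tagged proteins are made in a cell-free wheat germ extract, captured through their tags and used to pull down naked genomic DNA. There were 2 libraries of SEP3∆tet-AG, 3 of SEP3-AG, 4 of SEP3 and 1 of the input DNA, which served as the control for all 9 lists. SEP3 carried a FLAG tag in every library and AG a Myc tag, and SEP3∆tet is a splice form that lacks a stretch of the region through which the protein forms tetramers. The DNA came from 2-weeks old seedlings in every library and held no chromatin. SEP3 on its own was captured by its FLAG tag, whereas SEP3∆tet-AG and SEP3-AG were captured first by FLAG and afterwards by Myc, so the presence of AG and the second purification cannot be told apart in any comparison with SEP3. GEO's labels do not say whether each replicate library came from its own protein preparation, so p-values measure the spread between these libraries, which may be technical.

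MADS-domain proteins bind DNA as dimers at CArG boxes, and pairs of dimers can join into a tetramer that holds 2 boxes at once. In the ABC model of the flower, A class genes act in the outer whorls and B class genes in petals and stamens, and the C class gene AG acts in stamens and carpels. AP1 sets the identity of the floral meristem and of sepals and petals, CAL is its close and partly redundant relative, and FUL acts in the inflorescence meristem and the fruit. AP3 and PI form an obligate heterodimer that gives petals and stamens their identity. SEP3 is a partner of the A, B and C class proteins in these complexes, and AG is known to repress AP1 in the inner whorls.

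The lists differed in length, and this sets how often any gene could appear. They held 3331 and 2329 summits for SEP3∆tet-AG, 6643 to 9588 for SEP3-AG, and 473, 1225, 1915 and 8916 for SEP3 replicates 1 to 4. SEP3 replicate 4 thus stood apart from the other SEP3 libraries, and its summits carried another prefix in their names, so counts for SEP3 are also given without it. The fold enrichment of a summit is its fragment pileup over the local background that the peak caller MACS2 drew from the input, and the lowest value in a list was between 1.80 and 2.39. The fragments behind the 47 summits, recovered approximately from the fold enrichment and the p-value, numbered 60 to 556 with a median of 131. A site without a summit in a list may have been bound below that threshold.

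SEP3-AG had a site listed by at least 2 of its libraries at all 5 genes, against 2 genes for SEP3∆tet-AG (AP1 and AP3) and 3 for SEP3 (AP1, AP3 and PI). Over all protein-coding genes the share with such a site was 11.2% for SEP3∆tet-AG, 35.8% for SEP3-AG and 11.1% for SEP3. The counts of summits in the 5 regions were 3 and 3 in the SEP3∆tet-AG libraries, 8, 7 and 10 in the SEP3-AG libraries, and 1, 2, 4 and 9 in the SEP3 libraries. Per 1000 summits of the list these were 0.901 and 1.29 for SEP3∆tet-AG, 0.900 to 1.05 for SEP3-AG, and 1.01 to 2.11 for SEP3, so the raw counts followed the length of the lists. Without SEP3 replicate 4, AP3 was the 1 gene with a site that at least 2 SEP3 libraries shared, and AP1 had summits in SEP3 replicates 2 and 3 at different sites. With every list cut to its 473 best summits, the 1 gene with a site was AP3 in each of the 3 complexes.

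**Figure D1:**
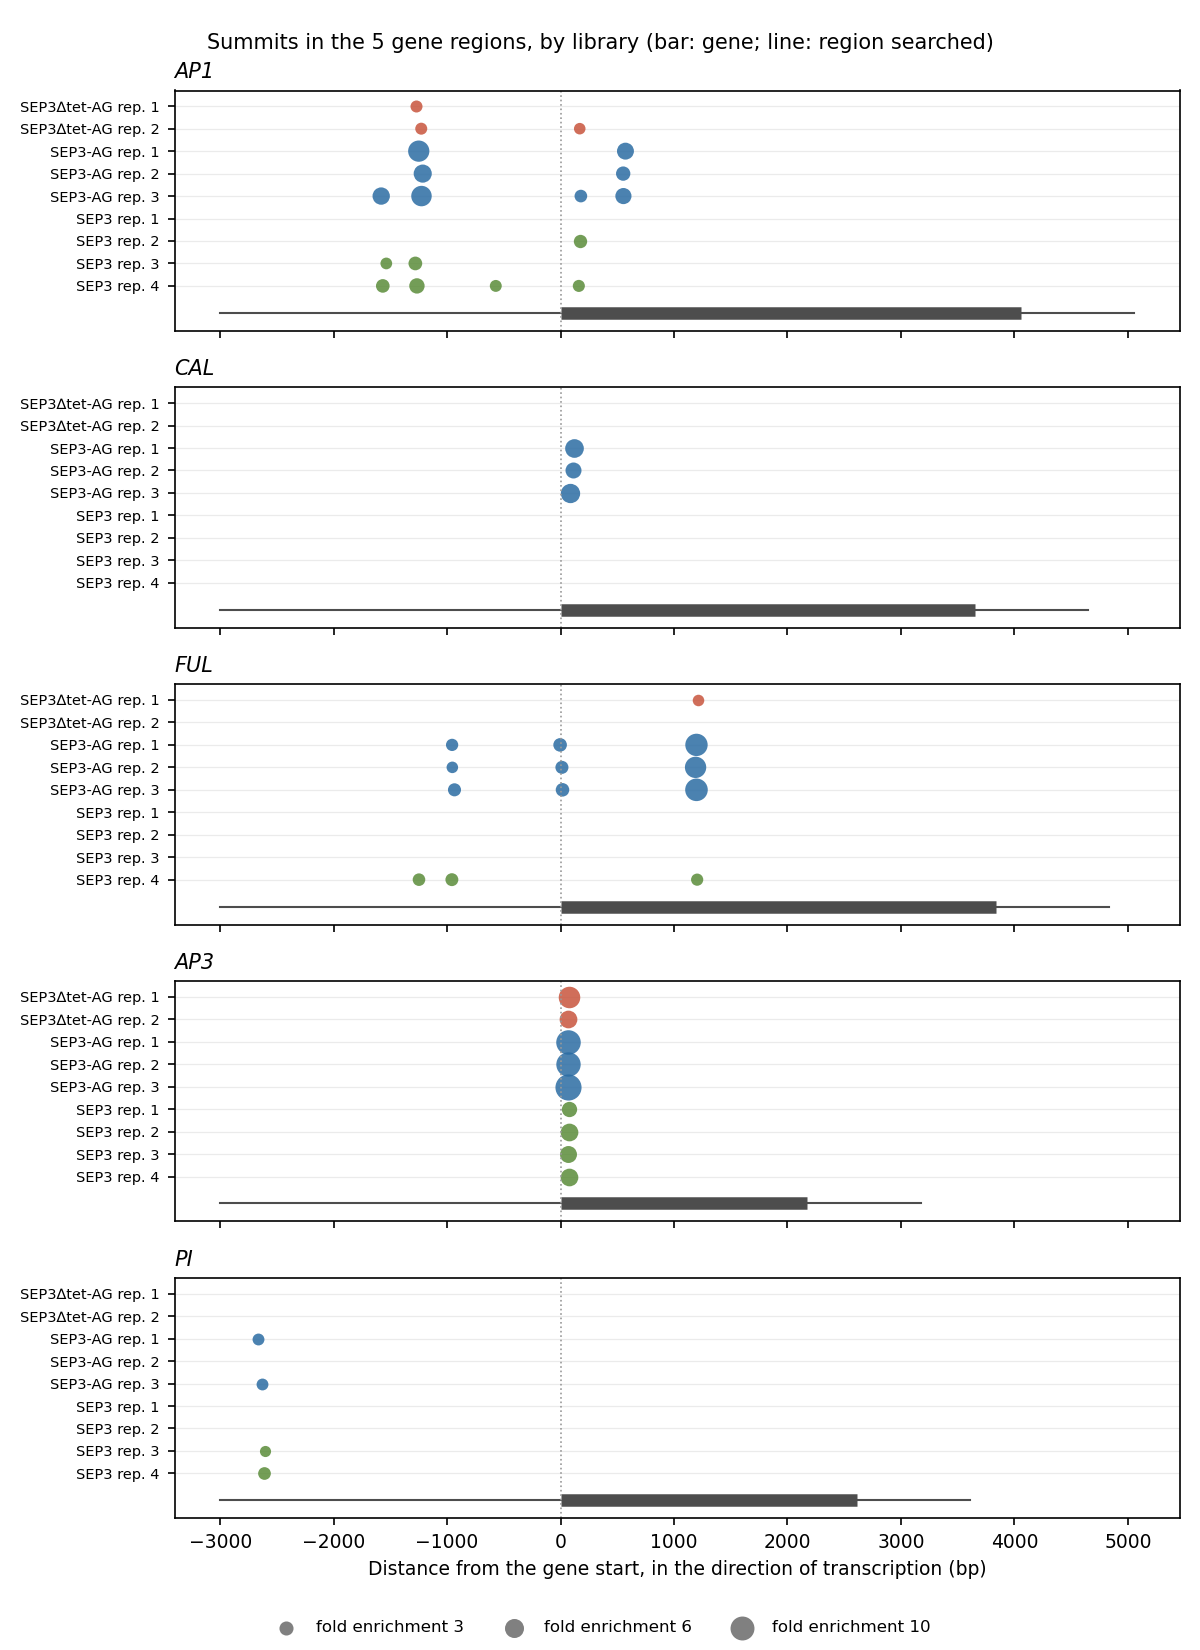
Summits at the 5 genes in each library, by distance in bp from the gene start in the direction of transcription; the area of a point follows the MACS2 fold enrichment (a ratio), the bar is the gene and the line the region searched. AP3 was the 1 gene with a summit in all 9 libraries, and the CAL summits came from the 3 SEP3-AG libraries alone.

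AP3 (chromosome 3, 20119140 to 20121314, minus strand, TAIR10) had a single site, 72 bp downstream of the annotated gene start and 155 bp upstream of the start codon, in the 5′ UTR of the RefSeq gene model. All 9 libraries listed it, with summits that lay within 11 bp of each other. Its fold enrichment was 9.72 and 6.58 in SEP3∆tet-AG, 12.6, 12.4 and 14.3 in SEP3-AG, and 4.91, 6.58, 6.03 and 6.54 in SEP3. All 3 SEP3-AG values thus lay above both SEP3∆tet-AG values and above all 4 SEP3 values, and SEP3∆tet-AG and SEP3 met at 6.58. In rank by p-value the site stood 49th of 3331 and 55th of 2329 summits in SEP3∆tet-AG, 116th of 8888, 117th of 6643 and 96th of 9588 in SEP3-AG, and 3rd of 473, 3rd of 1225, 15th of 1915 and 12th of 8916 in SEP3. Behind the summit stood about 388 and 413 fragments in SEP3∆tet-AG, 556, 454 and 314 in SEP3-AG, and 192, 194, 182 and 228 in SEP3, and the widest relative 95% Poisson interval, 157 to 210 around the lowest count, covers counting error only. The site was therefore near the top of every list, and of all 9508 sites listed by at least 2 libraries 3.33% were listed by all 9, with this site the 1 such site among the 10 of the 5 genes.

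Around the AP3 site lay 3 CArG boxes, each with 1 mismatch to CC, 6 bases of A or T, and GG. The boxes are shown because this was the site that every library listed, with the letters on the strand of the gene and the box in capitals.
AP3 box at 14 bp from the gene start: ACATAAATGG
AP3 box at 62 bp from the gene start: CCTTTCATGG
AP3 box at 87 bp from the gene start: CCATTTTTAG
The box at 62 bp was centred 5.5 bp from the position of the site, that at 87 bp 19.5 bp from it and that at 14 bp 53.5 bp from it. Centre to centre, the boxes were 48 bp apart from the first to the next, 25 bp from that to the last, and 73 bp from the first to the last.

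AP1 (chromosome 1, 25982294 to 25986349, minus strand) had 5 sites, the most of the 5 genes. The site 1266 bp upstream of the gene start was listed by 7 of 9 libraries, with a fold enrichment of 3.03 and 3.02 in SEP3∆tet-AG, 9.46, 6.87 and 8.78 in SEP3-AG, and 3.95 and 4.95 in SEP3 replicates 3 and 4. SEP3-AG values averaged 8.37 ± 1.34 (SD, n = 3), and all of them were above every value of the other complexes. The site was at rank 2744 of 3331 and 1957 of 2329 in SEP3∆tet-AG, 1320 of 8888, 1859 of 6643 and 2123 of 9588 in SEP3-AG, and 366 of 1915 and 745 of 8916 in SEP3 replicates 3 and 4. These lists differ in length and in their lowest values, so the ranks describe each list and are not compared between complexes, and SEP3 replicates 1 and 2 did not list the site.

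The other AP1 site that all SEP3-AG libraries listed lay in intron 1, 572 bp downstream of the gene start. It was listed by no SEP3∆tet-AG library, by all SEP3-AG libraries at 6.01, 4.30 and 5.46, and by no SEP3 library. It was the 1 site of the 10 with an exact CArG box, centred 0.5 bp from the position of the site. The remaining AP1 sites were listed by fewer libraries. One was 1567 bp upstream, at 6.31 in SEP3-AG replicate 3 and at 2.88 and 3.89 in SEP3 replicates 3 and 4. The peak regions of SEP3-AG replicates 1 and 2 (892 and 806 bp wide) also covered that position, but without a summit there. A site 170 bp downstream of the gene start, in the 5′ UTR, had a fold enrichment of 2.80 in SEP3∆tet-AG replicate 2, 3.36 in SEP3-AG replicate 3, and 3.73 and 3.06 in SEP3 replicates 2 and 4. Peak regions of SEP3-AG replicates 1 and 2 (820 and 678 bp wide) covered this position as well, with their summit elsewhere. A site 571 bp upstream was listed by SEP3 replicate 4 alone, at 2.98.

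The 101-base windows around both leading AP1 sites are given below, 5′ to 3′ on the strand of the gene, from the TAIR10.1 genome, with CArG boxes of at most 1 mismatch in capitals. They lie at chr1:25987565-25987665 and chr1:25985727-25985827, both on the minus strand.
AP1 -1266: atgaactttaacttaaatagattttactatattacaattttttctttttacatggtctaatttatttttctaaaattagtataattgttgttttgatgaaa
AP1 +572: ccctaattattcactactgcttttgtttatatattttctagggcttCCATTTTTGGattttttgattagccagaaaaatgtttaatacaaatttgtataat
The upstream window held no box with fewer than 2 mismatches and had a GC content of 16.8%, against 25.7% for the intronic window.

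CAL (chromosome 1, 9099994 to 9103644, minus strand) had a single site, 115 bp downstream of the gene start in the 5′ UTR and 19 bp upstream of the start codon. It was listed by no SEP3∆tet-AG library, by all SEP3-AG libraries at 7.30, 5.36 and 7.82, and by no SEP3 library. Its mean in SEP3-AG was 6.83 ± 1.30 (SD, n = 3), at ranks 1987 of 8888, 2465 of 6643 and 2178 of 9588. The closest CArG box had 1 mismatch and was centred 45.5 bp upstream of the summit position, at chr1:9103570-9103579.
CAL box with 10 bases on either side: agaaaactttCCTAATTAGAtcaagatcgt

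FUL (chromosome 5, 24502434 to 24506269, minus strand) had 4 sites, of which the strongest was in intron 1, 1198 bp downstream of the gene start. It was listed by SEP3∆tet-AG replicate 1 at 2.79, by the SEP3-AG libraries at 10.5, 9.52 and 10.7, and by SEP3 replicate 4 at 3.12. The SEP3-AG mean of 10.2 ± 0.621 (SD, n = 3) was second to AP3 among the 10 sites, and the lowest SEP3-AG value was more than 3 times each of the values in the other complexes. Its ranks in SEP3-AG were 429 of 8888, 492 of 6643 and 564 of 9588. They were 2704 of 3331 in SEP3∆tet-AG replicate 1 and 4090 of 8916 in SEP3 replicate 4. As for AP1, these ranks describe each list and are not compared between complexes.

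The other FUL sites had fold enrichments under 4. The site 958 bp upstream was listed by no SEP3∆tet-AG library, by SEP3-AG at 3.16, 2.79 and 3.58, and by SEP3 replicate 4 at 3.50. The site 4 bp upstream of the gene start was listed by no SEP3∆tet-AG library, by SEP3-AG at 3.87, 3.57 and 3.84, and by no SEP3 library. A site 1248 bp upstream came from SEP3 replicate 4 alone, at 3.32. Both single-library sites of the 12 thus came from SEP3 replicate 4, which alone listed 22.6% of all 14570 sites.

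The windows of the intronic and the upstream FUL site are shown because both hold a CArG box with 1 mismatch close to their centre. They lie at chr5:24505021-24505121 and chr5:24507177-24507277 on the minus strand.
FUL +1198: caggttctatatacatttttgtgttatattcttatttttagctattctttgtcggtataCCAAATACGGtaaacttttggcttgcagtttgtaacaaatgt
FUL -958: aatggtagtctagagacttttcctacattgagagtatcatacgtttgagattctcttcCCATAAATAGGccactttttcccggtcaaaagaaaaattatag
The capitals in the upstream window span 2 overlapping boxes, 1 bp apart, each with 1 mismatch. The intronic box was centred 13.5 bp from the position of its site. No box of at most 2 mismatches was within 50 bp of the site at the FUL gene start.

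PI (chromosome 5, 6828904 to 6831515, plus strand) had a single weak site, 2613 bp upstream of the gene start. It was listed by no SEP3∆tet-AG library, by SEP3-AG replicates 1 and 3 at 2.96 and 2.95, and by SEP3 replicates 3 and 4 at 2.60 and 3.39. These values overlapped between the complexes, and the ranks were 7518 of 8888 and 9045 of 9588 in SEP3-AG and 1685 of 1915 and 4525 of 8916 in SEP3. The site was 74 bp upstream of the start of another gene, BCB (AT5G20230), so its assignment to PI rests on the width of the region. No other merged site lay in the region of PI. Of the B class pair, AP3 thus had a summit in every library and PI a distant one in 4.

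**Figure D2:**
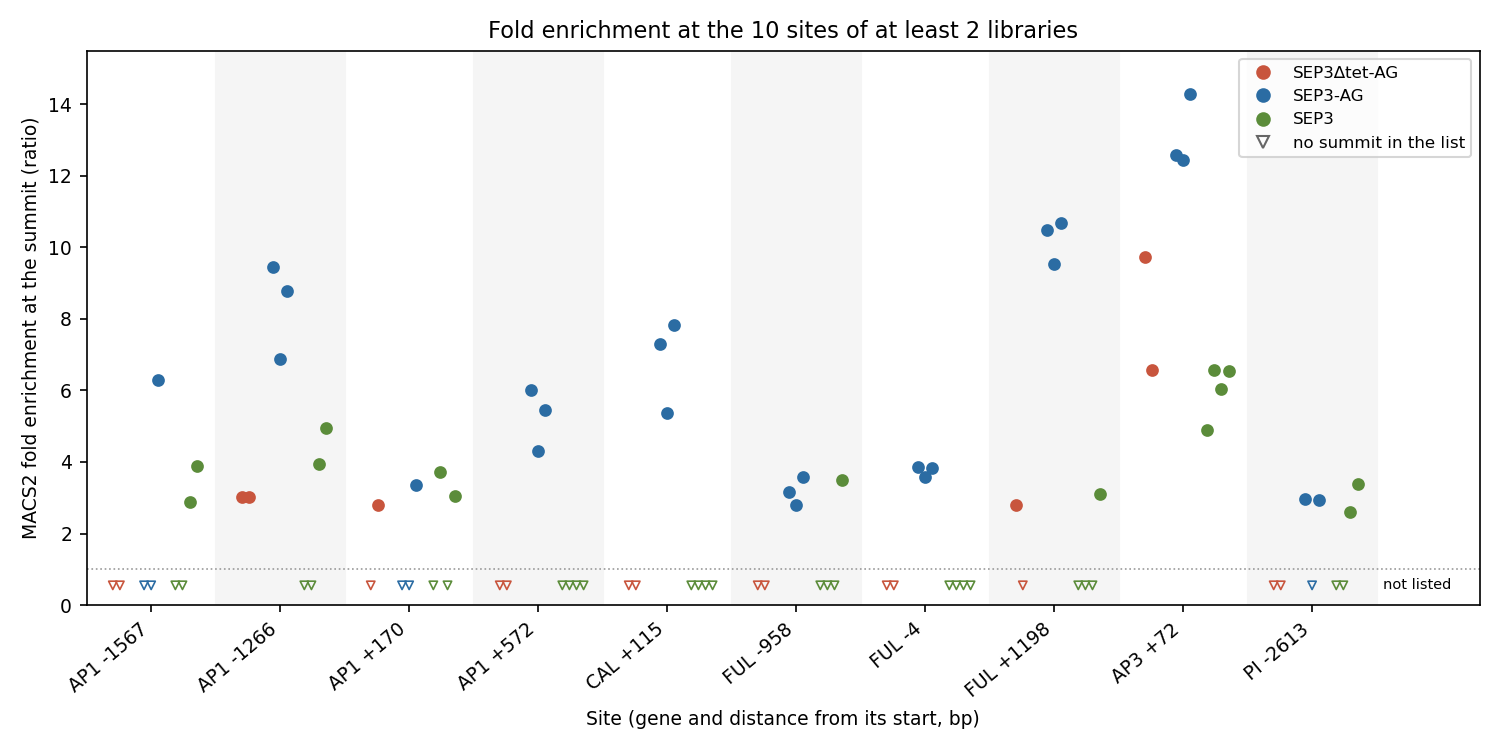
MACS2 fold enrichment (a ratio, linear axis) at the 10 sites that at least 2 libraries listed; each point is 1 library, and open triangles are libraries whose list had no summit there. SEP3-AG points lay above all others at AP1 -1266, FUL +1198 and AP3 +72.

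The comparison of SEP3∆tet-AG with SEP3-AG asks what the tetramerisation region adds to binding. At AP3, where every value was measured, the log2 difference in fold enrichment was -0.71 (SE 0.22, adjusted p = 0.0147), a 1.64-fold lower enrichment in SEP3∆tet-AG. At AP1 -1266, also listed by all 5 libraries of these complexes, it was -1.46 (SE 0.32, adjusted p = 0.0016), which is 2.74-fold lower. The spread behind each of these SEs came from all 9 libraries. SEP3 replicates 1 and 2 did not list AP1 -1266 and entered there at the lowest values of their lists. The SE at that site thus rests in part on values that were not measured. At FUL +1198, which SEP3∆tet-AG replicate 1 alone listed, the adjusted p was 9.22e-06. On the listed values alone the log2 difference was -1.87, from that lone SEP3∆tet-AG value. The fit on listed values gave all sites 1 common spread, so its p-values do not reflect the spread at the site itself. The main test was limma on the log2 fold enrichment over all 9508 sites, with a library that did not list a site set to the lowest value of its own list.

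That test called 7 of the 10 sites lower in SEP3∆tet-AG, against 58.2% of all sites, so the share was close to the background. The median log2 difference was -0.84 over the 10 sites and -0.88 over all sites. Both figures rest in part on values that were not measured: at 4 of the 7 called sites (AP1 +572, CAL +115, FUL -958 and FUL -4) no SEP3∆tet-AG library had a summit, and the test there set SEP3-AG values against the lowest values of the SEP3∆tet-AG lists. For those 4 only the listing is given, by all 3 SEP3-AG libraries and by no SEP3∆tet-AG library, a pattern that 39.3% of all sites shared. Of the 4 sites that could be tested with unlisted values left missing, AP3 and AP1 -1266 were called, under a spread common to all sites. FUL +1198 rested there on a lone SEP3∆tet-AG value. AP1 -1567, AP1 +170 and PI -2613 did not pass, and at AP1 -1567 and AP1 +170 the SEP3-AG replicates 1 and 2 entered at the lowest value of their lists although a peak region of each covered the position.

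The call at AP3 was lost without SEP3∆tet-AG replicate 2 (adjusted p = 0.23). On percentiles within each list, in place of fold enrichment, AP3 differed by -0.54 points (adjusted p = 0.96) and did not pass, while FUL +1198 did. AP1 -1266 differed by -61.5 points (SE 29.5, adjusted p = 0.15) and did not pass either. Its percentiles were 17.652 and 16.015 in SEP3∆tet-AG, below all of the 85.16, 72.031 and 77.868 in SEP3-AG. The SE took its spread from all 9 libraries, and SEP3 replicates 1 and 2 did not list the site. That p-value thus cannot decide whether these complexes differed there.

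The difference at AP3 was close to that of other strong sites. At the 317 sites that all 9 libraries listed, the median log2 difference of SEP3∆tet-AG from SEP3-AG was -0.73. Centring each library on its median over those 317 sites moves the difference of every site by the same 0.84. Of the sites then called between these complexes 39.6% were higher in SEP3∆tet-AG, against 2.93% without centring. AP3 then differed by 0.13 (adjusted p = 0.73) and AP1 -1266 by -0.61 (adjusted p = 0.072), and neither passed, while FUL +1198 remained lower at -1.29 (adjusted p = 6.70e-05). Which signs turn under this scaling follows from the size of the uncentred difference alone.

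SEP3-AG against SEP3 addresses the contribution of AG, together with that of the second purification. At AP3 the log2 difference was 1.13 (SE 0.19, adjusted p = 1.66e-04), a 2.19-fold higher enrichment in SEP3-AG. AP1 -1266 and FUL +1198 were also called higher in SEP3-AG (adjusted p = 5.64e-04 and 2.06e-06), with SEP3 replicates 3 and 4 listing the first and SEP3 replicate 4 alone the second. On listed values alone their log2 differences were 0.91 (adjusted p = 9.51e-04, under the spread common to all sites) and 1.71, the second from a lone SEP3 value. Without SEP3 replicate 4 the difference at AP3 was 1.17 (adjusted p = 2.76e-04), and FUL +1198 then had no SEP3 value.

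In all, 6 of the 10 sites were called higher in SEP3-AG, against 62.5% of all sites. At 3 of the 6 (AP1 +572, CAL +115 and FUL -4) no SEP3 library had a summit, and the test there set SEP3-AG values against the lowest values of the SEP3 lists. Their listing, by all 3 SEP3-AG libraries and by no SEP3 library, was shared by 28.3% of all sites. The sites AP1 -1567, AP1 +170, FUL -958 and PI -2613 did not pass, with the same limit at the first pair as above. Without SEP3 replicate 4 the count was 7 of 10, and 6193 of 8733 sites were called in either direction. No other SEP3 library listed AP1 +572, CAL +115, FUL -958, FUL -4 or FUL +1198, so only assigned lowest values stood for SEP3 there.

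Over the 317 shared sites the median log2 difference between SEP3-AG and SEP3 was 1.33, larger than at AP3. Centring moves every difference in this comparison by -1.36. Of the called sites 16.9% were then higher in SEP3-AG, against 94.8% without it. Among the 10 sites 1 was called higher (FUL +1198, 0.70, adjusted p = 0.0050) and 5 were called lower. At every site of the 10 but AP3, at least 1 library of these complexes entered at the lowest value of its list. These calls thus rest in part on values that were not measured. AP3 then differed by -0.23 (adjusted p = 0.37) and AP1 -1266 by 0.01 (adjusted p = 0.97). On percentiles AP3 differed by -0.98 points (adjusted p = 0.77), AP1 -1266 did not pass (adjusted p = 0.28) and FUL +1198 did. AP3 stood near the top of that scale in every list, which left little room for a difference there.

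Between SEP3∆tet-AG and SEP3 none of the 10 sites passed in limma, against 2.55% of all sites. At an unadjusted p under 0.05 there were 0 of the 10 sites and 1568 of all 9508. At AP3 the log2 difference was 0.42 (SE 0.21, adjusted p = 0.36). With 2 and 4 libraries this does not show that both bound AP3 alike. AP1 +572, CAL +115 and FUL -4 were listed by neither complex, so nothing was measured there. Centring moves every difference by -0.52, and 9 of the 10 sites, those 3 included, were then called lower in SEP3∆tet-AG, with 6993 of all 9508 sites called and 2.33% of them higher, against 94.2% without centring. AP3 then differed by -0.10 (adjusted p = 0.74) and was the 1 site of the 10 not called. Without SEP3 replicate 4, 0 of the 10 sites and 832 of 8733 sites were called. The 3 comparisons share libraries, so their results are not independent of each other.

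**Figure D3:**
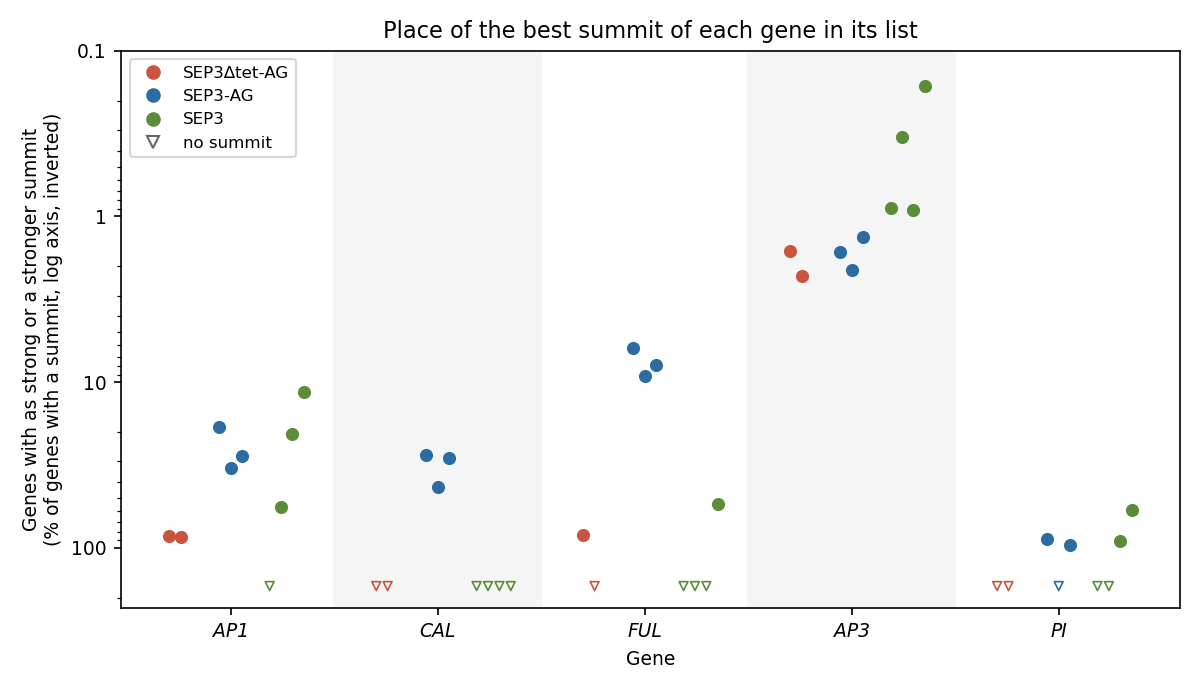
Place of the best summit of each gene among all protein-coding genes with a summit in the same list, as the percentage of those genes with an equal or higher −log10 p (log axis, inverted, so that the top is the strongest); each point is 1 library and open triangles mark lists with no summit at the gene. AP3 lay between 0.162% and 2.29% in all 9 lists.

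The place of each gene was also taken within its own list. The lists held summits at 677 to 10873 genes, so places are set against each other within a list and not between complexes. AP3 was within the best 1.62% and 2.29% of genes with a summit in SEP3∆tet-AG, the best 1.63%, 2.11% and 1.32% in SEP3-AG, and the best 0.886%, 0.331%, 0.912% and 0.162% in SEP3. It was the best placed of the 5 genes in all 9 lists. FUL was within the best 84.0% in SEP3∆tet-AG replicate 1, the best 6.24%, 9.20% and 7.85% in SEP3-AG, and the best 54.3% in SEP3 replicate 4. AP1 was at 85.1% and 86.2% in SEP3∆tet-AG, 18.7%, 33.0% and 27.9% in SEP3-AG, and 57.0%, 20.4% and 11.4% in SEP3 replicates 2 to 4. CAL was between 27.6% and 42.7% in SEP3-AG, and PI between 59.3% and 96.6% in the 4 lists that held it. In SEP3-AG the order was AP3, FUL and then AP1 and CAL, whose ranges overlapped, with PI last.

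A CArG box with at most 1 mismatch lay within 50 bp of 5 of the 10 sites (AP1 +572, CAL +115, FUL -958, FUL +1198 and AP3 +72). The share over all 9508 sites was 52.8%, and that over 27443 windows of the same 101-base length, centred 500 bp upstream of protein-coding genes, was 12.5%. An exact box was in 1 of the 10 sites, 9.02% of all sites and 0.605% of the promoter windows. With 2 mismatches allowed, 9 of the 10 sites, 95.9% of all sites and 70.3% of promoter windows held one, so that looser match says little. Both AP1 upstream sites of at least 2 libraries, AP1 +170, FUL -4 and PI -2613 were the sites with no box of at most 1 mismatch. Within 100 bp the count was 6 of the 10, through a box 75.5 bp from AP1 +170, against 63.2% of all sites.

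Among 24 other genes of flower development, which include the remaining floral MADS genes and regulators of flowering, 9 had a site in at least 2 SEP3∆tet-AG libraries, 16 in at least 2 SEP3-AG libraries and 14 in at least 2 SEP3 libraries. These were 37.5%, 66.7% and 58.3% of the 24, against 11.2%, 35.8% and 11.1% of all protein-coding genes. With lists of 473 summits the counts were 3, 5 and 6, for which no share over all genes was taken. SUPERMAN (SUP), which limits B class activity in the flower, had the strongest site in SEP3-AG, 920 bp upstream of its start, at 8.96 and 5.91 in SEP3∆tet-AG, 13.7, 13.6 and 15.6 in SEP3-AG, and 4.52, 4.34 and 5.62 in SEP3 replicates 2 to 4. TT16, the B-sister MADS gene of the seed coat, followed with a site 587 bp upstream, at 5.37 and 3.53 in SEP3∆tet-AG, 13.4, 11.8 and 12.1 in SEP3-AG, and 3.34 and 4.90 in SEP3 replicates 3 and 4. SOC1, a MADS gene that promotes flowering, had a site 724 bp upstream that no SEP3∆tet-AG library listed, at 12.0, 10.9 and 13.6 in SEP3-AG and 3.37, 3.30, 2.96 and 5.07 in SEP3. The AP3 site, with a SEP3-AG mean of 13.1 ± 1.02 (SD, n = 3), lay between SUP (14.3) and TT16 (12.4).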

How the data were processed

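Per the labels and the methods, the authors aligned reads with Bowtie2 to TAIR10 and called peaks in each library with MACS2 against 1 input DNA library, without pooling replicates (bcl2fastq 2.17 made the reads). The paper afterwards formed consensus peaks across replicates and compared complexes by mean normalised coverage. The merged sites and fold enrichments used here are other measures. The deposited lists give a fold enrichment (a ratio over local background), −log10 p, −log10 q and a score, which was not used. The input DNA is not analysed here beyond its part in these values. Summits were merged from the best-placed downwards, and sites of at least 2 libraries were tested with limma 3.58.1 in R 4.3.3, with Benjamini-Hochberg adjustment over 9508 sites at 0.05. Alternatives changed the scaling, floor, merging distance, list length, region, libraries and test. Genes and features came from RefSeq TAIR10.1, whose nuclear coordinates equal TAIR10. All 5 genes are described with every site, other floral genes by counts and the 3 strongest in SEP3-AG, and sequences for sites that all libraries of a complex list, as a box alone where the site lies in a UTR and none at FUL -4. The members and lists were chosen with earlier results of these data known. Counting error was taken here only from the recovered fragments. Their recovery used a scaling factor per library, itself chosen for a high share of whole numbers. In SEP3-AG replicate 3, where the input was scaled to the library, 60.7% of the background values used fell on whole steps. In the other libraries 100% of the summits used gave whole fragment numbers. The paper reports the number of reads of each library and the share of them in peaks, which were not used here.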

Additional observations from a re-analysis of the deposited data

Results flagged for a closer look

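The lengths of the 4 SEP3 lists (473, 1225, 1915 and 8916 summits) stood out: the gap between SEP3 replicate 4 and the next list was 0.829 of the whole range (0.8292 before rounding, against a 95% critical value of 0.829). Of 9 sets of SEP3 values tested in this way, this was the 1 flagged, and chance flags about 1 group in 20. At the 5 genes, SEP3 replicate 4 gave 9 of the summits, against 1, 2 and 4 in the other SEP3 libraries, and without it AP3 was the 1 gene with a site shared by at least 2 SEP3 libraries. Leaving it out gave 7 instead of 6 called sites of the 10 for SEP3-AG against SEP3, and 0 as before for SEP3∆tet-AG against SEP3. At AP1 +572, CAL +115, FUL -958, FUL -4 and FUL +1198 only the lowest values of the lists then stood for SEP3.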

How the results depend on the processing

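Of the 10 sites of the 5 genes, 7, 6 and 0 were called for SEP3∆tet-AG against SEP3-AG, SEP3-AG against SEP3, and SEP3∆tet-AG against SEP3. Centring libraries on shared sites gave 3, 6 and 9, of which 2, 1 and 0 were calls kept in the same direction. It moves every difference of a comparison, unlisted libraries included, by the same amount, so any smaller difference of the other sign turns. For AP3 the values were 0.13, -0.23 and -0.10. Percentiles within a list gave 4, 4 and 0, with AP3 turned to -0.98 points in the second comparison and -1.52 in the third. As AP3 stood near the top of every list, that scale left little room for a difference there. AP1 -1266 was not called on percentiles in the first comparison, where its SE also drew on the SEP3 libraries. Sites of all 9 libraries left 1 member, called 1, 1 and 0 times. Leaving unlisted values missing gave 3 of 4, 4 of 7 and 0 of 4, the 4 including a higher SEP3-AG at AP1 -1567 from 1 library. That fit used 1 common spread for all sites, and FUL +1198 entered it with 1 library of SEP3∆tet-AG and 1 of SEP3. Exact permutation tests called 0 (smallest possible p 0.1, 0.0286 and 0.0667), so they say nothing on stability. Leaving out each library gave 5 to 8, 6 to 7 and 0. Over all sites the counts were 5700, 6269 and 242, against 3330, 5743 and 6993 centred, 3560, 3980 and 284 with percentiles, 1719, 2341 and 166 with missing values, 238, 296 and 149 of 317 sites of all libraries, and 5379, 6081 and 158 with single-library sites. Without 1 library the third count ran from 0 to 832. The replicate block gave 7, 7 and 0 members and 5755, 6351 and 830 sites. Deviations of same-numbered libraries correlated between -0.27 and 0.03 over 317 sites, and those of differently numbered libraries between -0.18 and 0.27. The deviations of the 2 SEP3∆tet-AG libraries mirror each other, which ties the signs, so this cannot decide whether the numbers pair the libraries. The cause of these changes was not tested beyond what is stated.

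Genes of the 5 with a site (2, 5 and 3 for SEP3∆tet-AG, SEP3-AG and SEP3) became 0, 1 and 0 within 1000 bp upstream of the start, and 1, 1 and 1 with lists of equal length. Requiring every library gave 1 for SEP3, and leaving out a library gave 2 to 3, 4 to 5 and 1 to 3. Summits per library (3, 8.33 and 4) became 1, 1.33 and 1.25 with equal lists, and 0, 1.33 and 0.5 within 1000 bp upstream. Other floral genes with a site became 3, 5 and 6 with equal lists, and 4 for SEP3 in every library. The 5 sites with a CArG box became 1 with no mismatch and 9 with 2. A −log10 q of at least 10 left the called sites of the 5 genes at 7, 6 and 0, with 2 genes and 3.25 summits per library for SEP3, and merging within 100 bp left them at 7, 6 and 0. Every statement that a site was not listed is limited by the threshold of that list, below which the site may have been bound. The part of depth in this was not tested.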
